A study of Rattus norvegicus with 16 samples.

Results

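Potassium channel genes other than Kcne1 and Kcnq1 were described across the cochlea of newborn rats by 73 probe sets of 47 genes, out of 1263 probe sets and 720 genes measured. They were all probe sets whose gene symbol in the array's annotation begins with Kcn, with the 3 probe sets of Kcne1 and Kcnq1 left aside. A probe set is a group of short oligonucleotides on an Affymetrix Rat Neurobiology U34 array. Its signal is a brightness in arbitrary units that stands for the abundance of the transcript or transcripts it matches. The 16 arrays covered the organ of Corti, which holds the sensory hair cells, the modiolus, the cone of bone and nerve with the spiral ganglion neurons, and the stria vascularis, which secretes endolymph.

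Each region was measured in hypoxia, in normoxia and in its native state. Hypoxic explants were cultured for 24 h, spent 5 h at an oxygen pressure of 10 to 20 mmHg from 3 h after plating, and then recovered for 16 h. Normoxic explants were cultured for 24 h without hypoxia, and native tissue was taken from newborn rats without culture. Each array held total RNA from a pool of 12 cochleae, which for native tissue came from 6 animals. There were 2 arrays for native organ of Corti and for every cultured group, but a single array for the native state of modiolus and of stria vascularis. The labels of native modiolus and native stria vascularis describe fresh tissue but carry a treatment text on culture, and these arrays were used as native. The labels name no strain, and they do not say whether the repeats came from separate litters. The p values therefore measure the spread between the arrays of these pools.

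Potassium channels set the resting potential of a cell and end its action potentials. Voltage-gated families (Kcna, Kcnb, Kcnc, Kcnd, Kcnh and Kcnq) open on depolarisation, inward rectifiers (Kcnj) and tandem-pore channels (Kcnk) carry current near rest, and the families Kcnm and Kcnn open when calcium rises in the cell. Members of Kcnf, Kcng, Kcns and Kcnv form no channel of their own and change the behaviour of Kcnb channels. In the cochlea such channels repolarise hair cells and spiral ganglion neurons, and Kcnj10 in the stria vascularis takes part in making the endocochlear potential.

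Promoters of 3 members are printed because their signals set 1 cultured region apart: Kcnh6 and Kcnj16 were higher in cultured organ of Corti than in both other regions, and Kcnn3 was higher in cultured modiolus than in both others. Capitals mark each CG dinucleotide, and each stretch runs 5′ to 3′ on the plus strand of the RefSeq build GRCr8, from 250 bases before the annotated start to 50 bases after it. They lie at chr10:91449401-91449700 for Kcnh6, chr10:96517074-96517373 for Kcnj16 and chr2:177234090-177234389 for Kcnn3.
Kcnh6: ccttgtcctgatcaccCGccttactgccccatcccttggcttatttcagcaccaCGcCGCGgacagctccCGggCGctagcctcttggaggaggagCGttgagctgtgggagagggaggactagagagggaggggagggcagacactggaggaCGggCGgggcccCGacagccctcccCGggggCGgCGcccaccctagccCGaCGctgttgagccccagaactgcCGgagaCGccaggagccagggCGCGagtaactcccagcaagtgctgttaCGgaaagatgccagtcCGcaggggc
Kcnj16: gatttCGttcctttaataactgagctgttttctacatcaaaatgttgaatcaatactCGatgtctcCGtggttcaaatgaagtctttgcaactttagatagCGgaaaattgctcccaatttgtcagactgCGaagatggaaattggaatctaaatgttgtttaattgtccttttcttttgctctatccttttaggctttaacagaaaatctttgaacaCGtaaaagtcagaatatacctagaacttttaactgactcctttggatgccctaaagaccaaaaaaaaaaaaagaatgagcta
Kcnn3: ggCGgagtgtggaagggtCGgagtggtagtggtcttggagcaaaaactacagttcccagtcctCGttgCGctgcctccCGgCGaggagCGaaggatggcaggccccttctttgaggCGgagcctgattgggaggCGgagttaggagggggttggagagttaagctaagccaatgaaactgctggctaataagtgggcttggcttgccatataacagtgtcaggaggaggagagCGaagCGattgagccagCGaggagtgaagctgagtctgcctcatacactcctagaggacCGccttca
The Kcnh6 promoter held 21 CG dinucleotides with a GC content of 67.7%, the Kcnn3 promoter held 13 with 57.0%, and the Kcnj16 promoter held 6 with 34.0%. Of the 33469 promoters of the same length in the RefSeq table, 22.6% held at least as many CG dinucleotides as Kcnh6, 35.3% as many as Kcnn3 and 56.3% as many as Kcnj16. The GC box GGGCGG, searched on both strands, occurred 2 times in the Kcnh6 promoter, in neither of the other two, and at least once in 33.1% of all promoters. These counts describe the letters only. Of the 47 member genes, 35 had a promoter in the table.

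The authors had scaled every array to a common mean, and the median signal of an array lay between 555.4 and 939. The background of an array was taken as the 95th percentile of its 23 control probe sets for sequences foreign to the rat, and ranged from 236.8 to 772.2. A probe set counted as above background in a group when at least 1 array of the group exceeded that percentile. The Gapdh signal near the 3′ end over that near the 5′ end, a measure of RNA integrity, was 1.08 to 1.39 on cultured arrays and 3.39 to 4.76 on native arrays. Native arrays were scanned in session 1, first culture repeats in session 2 and second repeats in session 3, so that culture and scan session cannot be told apart. Every cultured group had 1 array in session 2 and 1 in session 3, so that cultured regions and oxygen were balanced over sessions. The main tests held no session term, so that the spread between arrays of a cultured group includes any difference between sessions. The same spread served for comparisons of native tissue. A session term was added as an alternative.

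Of the 73 members, 51 were above background in at least 1 group, 15 in all 9 groups and 7 on all 16 arrays, and 22 were above background in none. The 7 stood for Kcnh2, Kcnh3, Kcnj1, Kcnj8, Kcnk1, Kcnmb1 and Kcnq3. In all, 10 genes had no probe set above background in any group: Kcna2, Kcna3, Kcnab1, Kcnh1, Kcnj13, Kcnj2, Kcnj6, Kcnj9, Kcnk3 and Kcnt1. Of the members, 46.6% were above background in hypoxic, 46.6% in normoxic and 56.2% in native organ of Corti. In modiolus the shares were 49.3%, 35.6% and 57.5% in hypoxic, normoxic and native tissue, and in stria vascularis 35.6%, 38.4% and 32.9%. Over all probe sets the shares were 56.0% to 72.8%, higher than those of the members in each of the 9 groups. These shares move with the background of each array as well as with signal, and with 1 or 2 arrays a group.

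**Figure D1:**
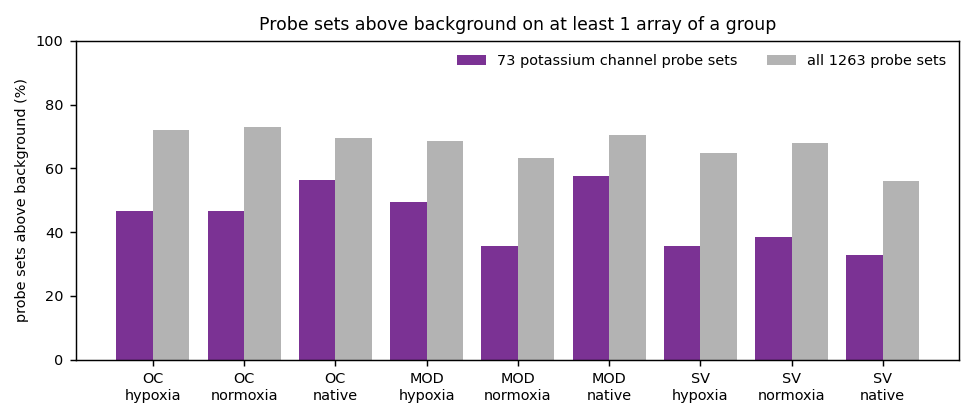
Share of probe sets (percent, vertical axis) above background on at least 1 array of each of the 9 groups, for the 73 potassium channel probe sets (purple) and all 1263 probe sets (grey). The purple bars run from 32.9% to 57.5% and stand below the grey bar in every group.

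The subfamilies differed in how many members rose above background. Of the Kcnh family (ether-a-go-go channels) 10 of 11 probe sets did so, of the Kcnj family 14 of 19, of Kcna 5 of 10, of Kcnd 4 of 6, of Kcnc 3 of 6, of Kcnm 3 of 4, of Kcnn 2 of 2 and of Kcnk 1 of 3. Brightness depends on the probe as well as the transcript, so that signals are compared only within a probe set.

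Several voltage-gated and modulatory subunits were above background on nearly all arrays. Kcnh3 (AJ007627_at), a channel of the ELK group, had signals of 5855 to 8278 over the 16 arrays. Kcnq3 (AF091247_s_at), a subunit of the M-current that steadies neuronal firing, ranged from 676 to 1730 and was above background on 16 arrays. The other Kcnq3 probe set, AF087454_at, was above background in no group. Kcng1 (M81784_at) ranged from 262 to 1042, with 15 arrays above background. At the main setting AJ007627_at, AF091247_s_at and M81784_at passed none of the comparisons described further on. For AF091247_s_at and M81784_at every cultured modiolus array exceeded every cultured stria vascularis array. The differences were 0.67 ± 0.24 (limma adjusted p = 0.055, and 0.044 with the session as a term) and 0.96 ± 0.39 (adjusted p = 0.088, and 0.048).

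Others ranged widely and were often near background. Kcna5 (M27158cds_at), a Shaker-type channel, ranged from 183 to 1264 with 11 arrays above background. Kcnc4 (X62841mRNA_at), a fast Shaw-type channel, ranged from 70.6 to 926 with 11, and Kcnd3 (U92897_s_at), an A-type channel subunit, from 240 to 1866 with 13. Kcnb2 (M77482_at), a delayed rectifier, was above background on 2 arrays, 1 each of native organ of Corti (555) and native modiolus (602). Kcnf1 (M81783_at) was above background on 5 arrays and Kcnv1 (X98564cds_at) on 4.

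The BK subunits and Kcnn1, which carry or shape calcium-activated currents, were above background in most groups, and so was Kcnj8. Kcnmb1 (AF020712_at), the beta subunit that raises the calcium sensitivity of BK channels, ranged from 1532 to 4775 and was above background on all 16 arrays. Kcnma1 (AF083341_s_at), the BK pore that shapes the fast current of mature inner hair cells, ranged from 202 to 1183 with 10 arrays above background. Kcnn1 (AF000973_s_at), a small-conductance channel, ranged from 240 to 1547 with 14. Kcnj8 (D42145_at), one of the pores of ATP-sensitive channels, ranged from 625 to 1798 with all 16 above background. None of these 4 probe sets passed a comparison at the main setting.

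Differences were tested in limma on log2(signal + 16), with 1 mean per group over the 16 arrays, so that single arrays were assumed to vary like the others. Values are log2 differences ± the standard error of the model, p values are two-sided and adjusted by Benjamini-Hochberg over all 1263 probe sets, and 0.05 was the threshold. A fold is given as at least N-fold where one side was not above background, with that side raised to the background of its arrays. Cultured regions were compared over 4 arrays a region, as the mean of hypoxia and normoxia. In these pooled tissues, fewer cells of a type and less RNA per cell cannot be told apart.

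Between cultured organ of Corti and cultured modiolus 10 members differed, 6 higher and 4 lower, against a background of 25.1% of all probe sets called (11.9% higher and 13.2% lower). Between cultured organ of Corti and cultured stria vascularis 5 differed, all higher, against 15.8% of all (10.5% higher and 5.23% lower). Between cultured modiolus and cultured stria vascularis 10 differed, 8 higher and 2 lower, against 25.2% (16.8% higher and 8.39% lower). The members' shares of 13.7%, 6.85% and 13.7% were thus below the background in each comparison. The median difference of the members was -0.30, 0.23 and 0.54, beside -0.22, 0.14 and 0.41 for all probe sets. The last of these moved to 0.08 with quantile normalization and to -0.02 with each array centred on its median, so that part of the difference between modiolus and stria vascularis rests on scaling. For organ of Corti against stria vascularis the members' median also turned, to -0.06 and -0.09. The calls over all probe sets in that comparison were 133 higher and 66 lower, against 106 and 73 with quantile normalization and 80 and 118 with median centring. Among the members, quantile normalization gave 4 higher and 0 lower, and median centring 5 higher and 1 lower, the last being Kcnh3 by AJ007627_at. For modiolus against stria vascularis the calls over all probe sets were 212 higher and 106 lower, against 117 and 134, and 68 and 178.

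Among inward rectifiers, Kcnj11, the pore of the ATP-sensitive channel that links membrane potential to metabolism, was higher in cultured organ of Corti than in both other regions by both of its probe sets, which derive from 1 sequence. D86039_at had signals of 2500 and 2001 in hypoxic and 2500 and 2195 in normoxic organ of Corti. It had 814 and 469 in hypoxic and 284 and 401 in normoxic modiolus, and 539 and 546 in hypoxic and 1052 and 468 in normoxic stria vascularis. The cultured organ of Corti arrays lay above all other cultured arrays. The difference was 2.28 ± 0.28 against modiolus (adjusted p = 6.4e-05, at least 3.72-fold higher) and 1.86 ± 0.28 against stria vascularis (adjusted p = 0.00049).

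The second Kcnj11 probe set, D86039_g_at, had 1408 and 1490 in hypoxic and 1298 and 1725 in normoxic organ of Corti. It had 1107 and 883 in hypoxic and 327 and 440 in normoxic modiolus, and 265 and 249 in hypoxic and 267 and 255 in normoxic stria vascularis. Stria vascularis was below background throughout. The difference was 1.24 ± 0.26 against modiolus (adjusted p = 0.0035, at least 1.91-fold higher) and 2.44 ± 0.26 against stria vascularis (adjusted p = 3.1e-05, at least 3.52-fold higher). Between modiolus and stria vascularis the probe sets did not go together. D86039_g_at was higher in modiolus by 1.20 ± 0.26 (adjusted p = 0.0046), which missed the threshold under quantile normalization (0.087) and median centring (0.064). D86039_at gave -0.42 ± 0.28 (adjusted p = 0.27).

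Kcnj16, which pairs with Kcnj10 to form a pH-sensitive rectifier, was also higher in cultured organ of Corti than in both other cultured regions. X83581cds_at had 2279 and 2252 in hypoxic and 1891 and 1550 in normoxic organ of Corti. It had 681 and 251 in hypoxic and 104 and 507 in normoxic modiolus, and 849 and 390 in hypoxic and 220 and 420 in normoxic stria vascularis. Organ of Corti did not overlap with the other regions, which overlapped with each other. The difference was 2.59 ± 0.48 against modiolus (adjusted p = 0.0016) and 2.19 ± 0.48 against stria vascularis (adjusted p = 0.0066). Within scan sessions 2 and 3 it was 2.85 and 2.34 against modiolus and 2.21 and 2.16 against stria vascularis. In native tissue the differences of organ of Corti were 1.11 against modiolus and 1.67 against stria vascularis, and did not pass.

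Kcnj1, the ROMK channel known from potassium secretion in the kidney, was higher in cultured modiolus than in both other cultured regions. S78154_at had 1596 and 1154 in hypoxic and 833 and 908 in normoxic organ of Corti, 2388 and 2563 in hypoxic and 2543 and 1234 in normoxic modiolus, and 844 and 607 in hypoxic and 1070 and 809 in normoxic stria vascularis. On cultured arrays modiolus exceeded stria vascularis throughout and overlapped with organ of Corti. The difference between modiolus and stria vascularis was 1.34 ± 0.25 (adjusted p = 0.0015), and that between organ of Corti and modiolus was -0.94 ± 0.25 (adjusted p = 0.015). The second was not called without normoxic modiolus replicate 1 (0.054) or hypoxic organ of Corti replicate 2 (0.06).

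A second Kcnj1 probe set, AF081365_s_at, showed the same signs, with -0.92 ± 0.26 between organ of Corti and modiolus (adjusted p = 0.023) and 0.81 ± 0.26 between modiolus and stria vascularis (adjusted p = 0.041). The first call was lost without normoxic organ of Corti replicate 2, normoxic modiolus replicate 1, hypoxic organ of Corti replicate 2 or hypoxic modiolus replicate 1 (0.06 to 0.083). The other was lost without either native organ of Corti array, any 1 of the 4 cultured modiolus arrays, normoxic stria vascularis replicate 2 or hypoxic stria vascularis replicate 2 (0.053 to 0.14), and under both other scalings (0.26 and 0.34). The remaining probe set of Kcnj1, AF081366_s_at, passed none of these comparisons. In native tissue S78154_at was not highest in modiolus, with a mean of 2345 in organ of Corti, 2243 in modiolus and 2882 in stria vascularis. AF081365_s_at had 740, 1525 and 827 in the same order, and AF081366_s_at had 300.5, 545.9 and 287. No Kcnj1 probe set passed between native regions.

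The tandem-pore channel Kcnk1, a weak leak channel, had the smallest adjusted p of the members between regions. AF022819_at had 4256 and 4895 in hypoxic and 3556 and 4254 in normoxic organ of Corti. It had 863 and 949 in hypoxic and 1053 and 806 in normoxic modiolus, and 3332 and 3154 in hypoxic and 3286 and 2750 in normoxic stria vascularis. All 16 arrays were above background, and modiolus stood apart below the other regions. The difference was 2.19 ± 0.16 between organ of Corti and modiolus (adjusted p = 6.1e-07) and -1.76 ± 0.16 between modiolus and stria vascularis (adjusted p = 3.5e-06). Within sessions 2 and 3 these were 2.01 and 2.36, and -1.78 and -1.73.

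Kcns3, a modulatory subunit of Kcnb channels, was likewise low in modiolus. Y17607_s_at had 1752 and 1451 in hypoxic and 1210 and 1804 in normoxic organ of Corti, 434 and 661 in hypoxic and 844 and 846 in normoxic modiolus, and 1196 and 1385 in hypoxic and 1191 and 2155 in normoxic stria vascularis. Modiolus did not overlap with the other regions. The difference was 1.17 ± 0.26 between organ of Corti and modiolus (adjusted p = 0.006) and -1.07 ± 0.26 between modiolus and stria vascularis (adjusted p = 0.011). The second was not called without normoxic stria vascularis replicate 2 (0.051).

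In the ether-a-go-go family, Kcnh6, an ERG-type channel, was higher in cultured organ of Corti than in both other cultured regions. rc_AA894087_at had 1494 and 1505 in hypoxic and 1112 and 1358 in normoxic organ of Corti. It had 972 and 518 in hypoxic and 345 and 151 in normoxic modiolus, and 380 and 401 in hypoxic and 135 and 111 in normoxic stria vascularis. Organ of Corti did not overlap with either region. The difference was 1.70 ± 0.34 against modiolus (adjusted p = 0.0028, at least 2.07-fold higher) and 2.53 ± 0.34 against stria vascularis (adjusted p = 0.00022, at least 3.41-fold higher). Within sessions 2 and 3 it was 1.13 and 2.28, and 2.42 and 2.65. In native tissue the differences of organ of Corti were 1.31 against modiolus and 2.085 against stria vascularis, and did not pass.

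Kcnh2, the ERG channel that repolarises the heart, was described by a probe set that differed between regions and another that did not. Z96106_at had 311 and 843 in hypoxic and 1056 and 900 in normoxic organ of Corti, 915 and 1371 in hypoxic and 347 and 249 in normoxic modiolus, and 216 and 243 in hypoxic and 289 and 236 in normoxic stria vascularis. Stria vascularis was below background on all its arrays. The difference was 1.47 ± 0.34 between organ of Corti and stria vascularis (adjusted p = 0.0088, at least 1.71-fold higher), which quantile normalization moved to 1.08 (0.075). It was 1.19 ± 0.34 between modiolus and stria vascularis (adjusted p = 0.023). This call was lost under quantile normalization (0.21), median centring (0.16) and without normoxic modiolus replicate 1, normoxic stria vascularis replicate 2, hypoxic modiolus replicate 2 or hypoxic stria vascularis replicate 1 (0.053 to 0.077). U75210_s_at, the other Kcnh2 probe set, had 1576 to 2690 on the 12 cultured arrays and passed no region comparison.

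Kcnh5, an EAG-type channel, was higher in cultured modiolus than in cultured stria vascularis. AF073891_at had 1324 and 1230 in hypoxic and 1248 and 947 in normoxic modiolus, against 423 and 416 in hypoxic and 817 and 806 in normoxic stria vascularis. The groups did not overlap. The difference was 0.99 ± 0.22 (adjusted p = 0.0064), and it missed the threshold under quantile normalization (0.61, adjusted p = 0.064) and median centring (0.56, adjusted p = 0.083).

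Of the A-type subunits, Kcnd3 was lower in cultured organ of Corti than in cultured modiolus by U42975_at. It had 342 and 337 in hypoxic and 666 and 302 in normoxic organ of Corti, against 824 and 1036 in hypoxic and 903 and 742 in normoxic modiolus. The groups did not overlap. The difference was -1.12 ± 0.32 (adjusted p = 0.023), and the call was lost without normoxic organ of Corti replicate 2 (0.092), normoxic modiolus replicate 1 (0.063), hypoxic organ of Corti replicate 2 (0.058) or hypoxic modiolus replicate 2 (0.069). The other 3 probe sets of Kcnd3 did not pass.

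Kcnn3, a small-conductance calcium-activated channel that sets the afterhyperpolarisation of neurons, was higher in cultured modiolus than in both other regions. U69884_at had 55.7 and 35.8 in hypoxic and 22.9 and 59.2 in normoxic organ of Corti, 672 and 293 in hypoxic and 622 and 331 in normoxic modiolus, and 165 and 40.2 in hypoxic and 53.1 and 28.8 in normoxic stria vascularis. Every cultured modiolus array exceeded the cultured arrays of both other regions, but only the first hypoxic one was above its background. The difference was -3.02 ± 0.48 between organ of Corti and modiolus (adjusted p = 0.00056) and 2.64 ± 0.48 between modiolus and stria vascularis (adjusted p = 0.0015). Within sessions 2 and 3 it was -3.65 and -2.39, and 2.57 and 2.71. No least fold can be given, since normoxic modiolus was not above background.

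Kcna1 by M26161_at (1.58 ± 0.50, adjusted p = 0.037) and Kcnj13 (1.73 ± 0.57, adjusted p = 0.042) also passed between modiolus and stria vascularis, and were above background in none of the 4 groups compared. With the scan session as a term, all the region calls above stayed under the threshold. Beside Kcnq3 and Kcng1, that term added Kcnd3 by U92897_s_at between modiolus and stria vascularis (1.19, adjusted p = 0.047) and between organ of Corti and stria vascularis (1.39, adjusted p = 0.036), and Kcnh5 between organ of Corti and modiolus (-0.65, adjusted p = 0.032). Under quantile normalization and under median centring 5 members passed between modiolus and stria vascularis, 2 higher and 3 lower. They were Kcnn3, Kcnj1 (S78154_at), Kcnk1, Kcns3 and Kcnj11 (D86039_at), of which the last was lower in modiolus. Without normoxic stria vascularis replicate 2 or hypoxic modiolus replicate 2 the count for that comparison was 6.

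**Figure D2:**
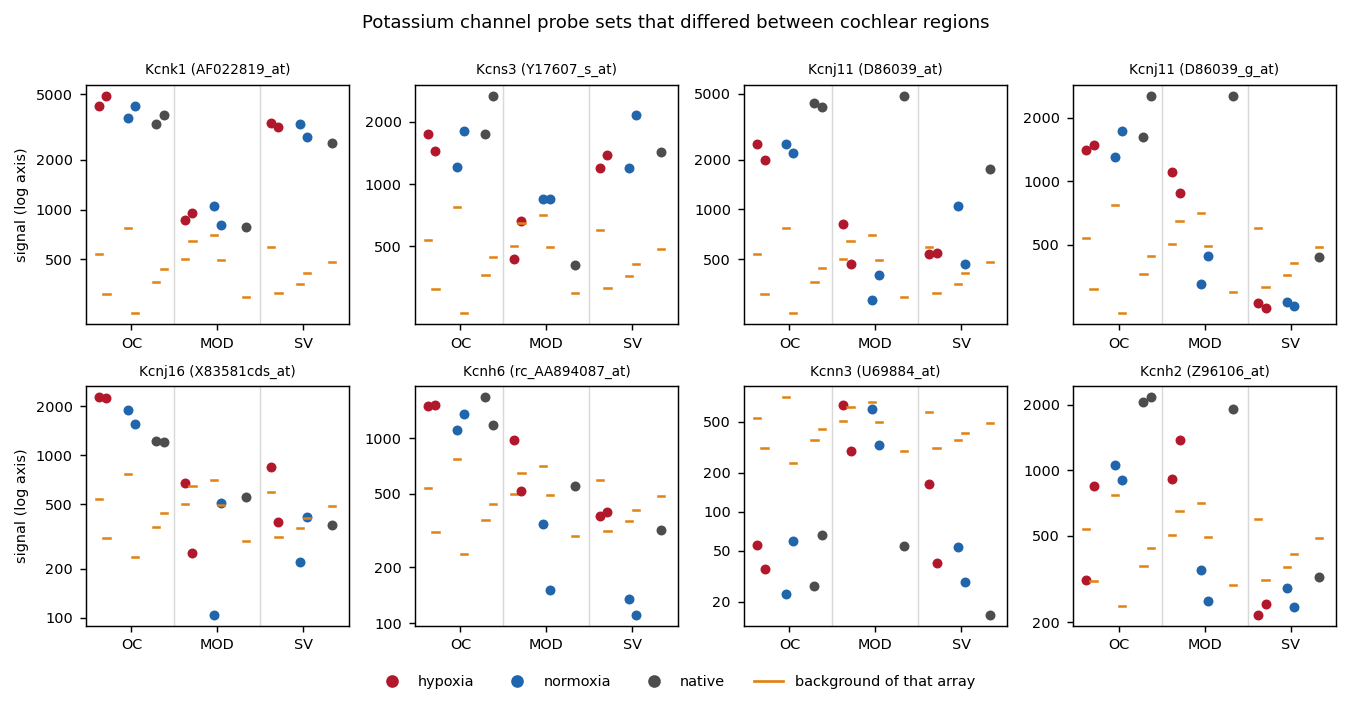
Signal of 8 probe sets (log axis, arbitrary units) on each of the 16 arrays by region (OC stands for organ of Corti, MOD for modiolus, SV for stria vascularis), with hypoxia in red, normoxia in blue and native tissue in grey. Orange bars give the background of each array. Kcnk1 was 780 to 1053 in modiolus and 2542 or more elsewhere, while Kcnn3 exceeded its background on 1 modiolus array.

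Native regions were compared with 2 arrays of organ of Corti and 1 array each of modiolus and stria vascularis. Between native organ of Corti and native modiolus 3 members differed, 2 higher and 1 lower, against 5.46% of all probe sets (3.4% higher and 2.06% lower). Between native organ of Corti and native stria vascularis 3 differed, all higher, against 7.13% (4.67% higher and 2.45% lower). Between native modiolus and native stria vascularis 6 differed, 5 higher and 1 lower, against 9.18% (4.75% higher and 4.43% lower), with a median of 0.47 for the members and 0.23 for all. Under quantile normalization and under median centring the last count was 3 higher and 2 lower, the members' median 0.10 and 0.13, and that of all probe sets 0.03 and -0.10. The calls over all probe sets there were 60 higher and 56 lower, against 48 and 69, and 44 and 84. Between native organ of Corti and native stria vascularis they were 59 higher and 31 lower, and 41 and 51 under median centring.

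Kcnk1 and Kcns3 were again low in modiolus. Kcnk1 had 3310 and 3718 in native organ of Corti, 780 in native modiolus and 2542 in native stria vascularis. It was higher in organ of Corti than in modiolus by 2.15 ± 0.27 (adjusted p = 0.0011) and lower in modiolus than in stria vascularis by -1.68 ± 0.32 (adjusted p = 0.0045). Kcns3 had 1738 and 2684 in native organ of Corti, 404 in native modiolus and 1433 in native stria vascularis. Its difference of 2.37 ± 0.46 between organ of Corti and modiolus passed (adjusted p = 0.01), but not without native organ of Corti replicate 2 (0.068).

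Kcnj11, Kcnh2 and Kcnd3 were each called higher, by a single probe set, in both native organ of Corti and native modiolus than in native stria vascularis. D86039_g_at of Kcnj11 had 1624 and 2544 in organ of Corti, 2546 in modiolus and 437, below background, in stria vascularis. It was at least 4.09-fold higher in organ of Corti (2.18 ± 0.44, adjusted p = 0.0087) and at least 5.11-fold higher in modiolus (2.50 ± 0.51, adjusted p = 0.0079) than in stria vascularis. Z96106_at of Kcnh2 had 2066 and 2164 in organ of Corti, 1917 in modiolus and 321 in stria vascularis. The difference was 2.66 ± 0.59 (adjusted p = 0.013, at least 4.25-fold) for organ of Corti and 2.52 ± 0.68 (adjusted p = 0.036, at least 3.86-fold) for modiolus. rc_AI230211_s_at of Kcnd3 had 184 and 627 in organ of Corti, 531 in modiolus and 28.4 in stria vascularis, with 3.01 ± 0.65 (adjusted p = 0.012) and 3.62 ± 0.75 (adjusted p = 0.0088, at least 1.09-fold). The stria vascularis array was lowest in each case, and the first organ of Corti array of Kcnd3 was below background. All other probe sets of these genes did not pass. D86039_at of Kcnj11 differed from stria vascularis by 1.28 in organ of Corti and 1.47 in modiolus, and U75210_s_at of Kcnh2 by 0.43 and 0.51.

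The calls against stria vascularis rested on few arrays. Without native organ of Corti replicate 2, none of the 3 calls of organ of Corti against stria vascularis passed (Kcnd3 0.069, Kcnh2 0.072, Kcnj11 0.075), and that of Kcnh2 was also lost without replicate 1 (0.064) and under quantile normalization (0.054). For Kcnh2 between modiolus and stria vascularis the call was lost without any 1 of the native or normoxic organ of Corti arrays (0.051 to 0.06), under quantile normalization (0.098) and under median centring (0.069).

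Kcnh8, an ELK-type channel, was high in native modiolus alone by AF061957_at. It had 49.8 and 157 in native organ of Corti, 913 in native modiolus and 89.5 in native stria vascularis, and 93.5 to 241 on the 12 cultured arrays. The difference was -3.12 ± 0.66 between organ of Corti and modiolus (adjusted p = 0.016, at least 2.23-fold lower) and 3.14 ± 0.76 between modiolus and stria vascularis (adjusted p = 0.019, at least 1.85-fold higher). The first was not called without native organ of Corti replicate 1 (0.11). Its second probe set, AJ007632_s_at, had 827 and 819, 1279 and 861 in the same tissues and did not pass. Kcna1, the Shaker-type channel of axons, had 375 and 344, 493 and 26.9 by M26161_at, and was higher in modiolus than in stria vascularis by 3.57 ± 1.01 (adjusted p = 0.045, at least 1.01-fold). That call was lost in 15 of its alternatives, among them leaving out any 1 array of native organ of Corti, normoxic organ of Corti, normoxic stria vascularis, hypoxic stria vascularis or hypoxic modiolus (0.055 to 0.065).

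Culture was tested as normoxic minus native tissue, and as the mean of the 3 regions. Of the 73 members, 10 differed on average, 9 lower and 1 higher, against 32.0% of all probe sets called (18.7% lower and 13.3% higher). The members' share, 13.7%, was below the background. Their median difference was -0.36, beside -0.14 for all probe sets. The probe sets that fell stood for 7 genes: the A-type subunits Kcnd2 and Kcnd3, the axonal channel Kcna1, the fast-spiking channel Kcnc1, the ERG channel Kcnh2 and the rectifiers Kcnj1 and Kcnj11. For Kcna1, Kcnd2, Kcnd3 and Kcnj1 other probe sets did not pass. In all, 1 of 2 probe sets of Kcnh3 rose.

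**Figure D3:**
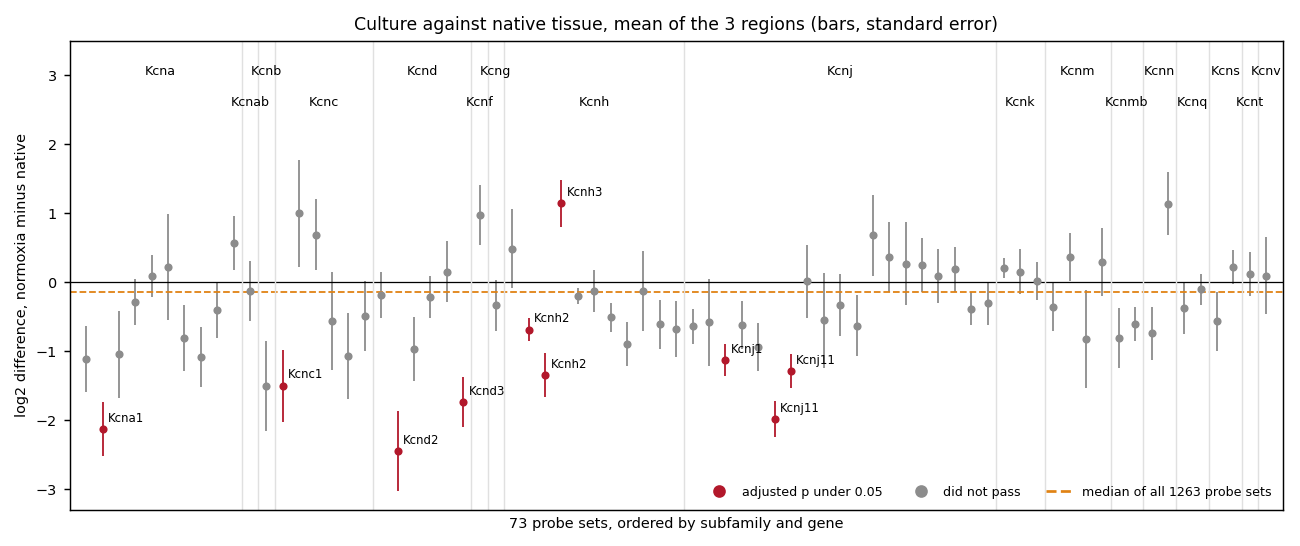
Log2 difference of normoxic culture minus native tissue, mean of the 3 regions, for the 73 probe sets in order of subfamily, with bars of 1 standard error. Red points had an adjusted p under 0.05, and the dashed line is the median of all 1263 probe sets (-0.14). The red points lie at -2.44 to -0.68 but for Kcnh3 at 1.14.

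Kcnj11 was among the members with the smallest adjusted p. D86039_at had 2500 and 2195 in normoxic organ of Corti, against 4377 and 4180 in native. It had 284 and 401 in normoxic modiolus, against 4879 in native, and 1052 and 468 in normoxic stria vascularis, against 1752 in native. All normoxic arrays were lower than the native ones of their region. The mean difference was -1.98 ± 0.26 (adjusted p = 6.9e-05, at least 3.31-fold lower), and in modiolus it was -3.79 ± 0.48 (adjusted p = 0.00013, at least 8.07-fold lower). By D86039_g_at it was -1.28 ± 0.24 on average (adjusted p = 0.0012) and -2.70 ± 0.44 in modiolus (adjusted p = 0.00085, at least 4.23-fold lower).

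The culture difference of Kcnj11 varied between regions. A moderated F test of that variation gave an adjusted p of 0.04 for D86039_at, with differences of -3.79 in modiolus, -1.30 in stria vascularis and -0.86 in organ of Corti. It was the 1 member to pass, against 3.33% of all probe sets, and neither D86039_g_at (adjusted p = 0.094) nor Kcnh8 by AF061957_at (adjusted p = 0.11) did. The call was lost with no variance trend (0.094) and without 1 array in 10 of 14 cases (0.055 to 0.11). These were the 6 organ of Corti arrays, both normoxic modiolus arrays and both hypoxic stria vascularis arrays.

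Probe sets of Kcnd2, Kcna1 and Kcnd3 were lower after culture, while others of these subfamilies did not pass. Kcnd2 by S64320_at had 207 and 82 in normoxic organ of Corti, against 1218 and 209 in native, 149 and 135 in normoxic modiolus, against 1199, and 141 and 157 in normoxic stria vascularis, against 947. All normoxic arrays were below background, and 1 native organ of Corti array was as low. The mean difference was -2.44 ± 0.58 (adjusted p = 0.0056, at least 1.79-fold lower). Its other probe set, M59980_s_at, was above background nowhere (-0.18).

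Kcna1 by X12589cds_s_at had 188 and 289 in normoxic organ of Corti, against 1500 and 1642 in native, 162 and 473 in normoxic modiolus, against 2047, and 191 and 394 in normoxic stria vascularis, against 532. The groups did not overlap in any region. The difference was -2.13 ± 0.39 on average (adjusted p = 0.0011, at least 3.09-fold lower), -2.67 ± 0.59 in organ of Corti (adjusted p = 0.007) and -2.81 ± 0.72 in modiolus (adjusted p = 0.014, at least 3.40-fold lower). The last 2 calls were lost without replicate 1 of the normoxic organ of Corti (0.057) and of the normoxic modiolus (0.072). By M26161_at the mean difference was -1.11 ± 0.47 (adjusted p = 0.095).

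Kcnd3 by rc_AI230211_s_at had 63.6 and 50.2 in normoxic organ of Corti, against 184 and 627 in native, 45.3 and 42.3 in normoxic modiolus, against 531, and 47.2 and 31.3 in normoxic stria vascularis, against 28.4. It fell in organ of Corti (-2.31 ± 0.53, adjusted p = 0.0095) and modiolus (-3.19 ± 0.65, adjusted p = 0.0037), and on average by 1.73 on the log2 scale ± 0.36 (adjusted p = 0.0022), while both normoxic stria vascularis arrays lay above the native one. All normoxic arrays were below background, and no least fold can be given for these differences. The organ of Corti call was lost without native replicate 2 (0.1) or normoxic replicate 2 (0.066). The other Kcnd3 probe sets did not pass on average, with -0.96 by M74898cds_s_at, -0.21 by U42975_at and 0.16 by U92897_s_at. Kcnc1 by X62840mRNA_s_at had 236 and 268 in normoxic organ of Corti, against 794 and 576 in native, 283 and 148 in normoxic modiolus, against 707, and 156 and 94.4 in normoxic stria vascularis, against 350. Its difference of -1.50 ± 0.52 lay near the threshold (adjusted p = 0.046), with no least fold. It was lost without any 1 of the native or normoxic organ of Corti arrays, normoxic modiolus replicate 2 or either normoxic stria vascularis array (0.058 to 0.095), with the session as a random block (0.086), and under quantile normalization and a pseudocount of 1 (0.052 each).

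Among ERG channels, Kcnh2 fell by both probe sets. U75210_s_at had 1934 and 2286 in normoxic organ of Corti, against 3980 and 3713 in native, 2609 and 2243 in normoxic modiolus, against 4063, and 2074 and 2116 in normoxic stria vascularis, against 2847. All arrays were above background and the groups did not overlap. The mean difference was -0.68 ± 0.16 (adjusted p = 0.0056). By Z96106_at it was -1.34 ± 0.32 (adjusted p = 0.0059), and in modiolus -2.64 ± 0.59 (adjusted p = 0.0061, at least 3.19-fold lower). In organ of Corti U75210_s_at fell by 0.87 on the log2 scale ± 0.24 (adjusted p = 0.026), a call lost without any 1 of the native or normoxic arrays of that region (0.063 to 0.16) and with no variance trend (0.062).

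Kcnj1 by S78154_at had 833 and 908 in normoxic organ of Corti, against 2491 and 2199 in native, and 1070 and 809 in normoxic stria vascularis, against 2882 in native. In modiolus it had 2543 and 1234 in normoxia, against 2243 in native. It was thus lower on 5 of 6 normoxic arrays. The difference was -1.12 ± 0.23 on average (adjusted p = 0.0023), -1.41 ± 0.35 in organ of Corti (adjusted p = 0.013) and -1.62 ± 0.42 in stria vascularis (adjusted p = 0.023), where it was the 1 member to pass. The organ of Corti call was lost without any 1 of the native or normoxic arrays of that region (0.051 to 0.094), and the stria vascularis call without normoxic replicate 2 (0.11). Its other probe sets did not pass.

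Kcnh8 and Kcnn3 changed in modiolus. AF061957_at of Kcnh8 had 146 and 118 in normoxic modiolus, against 913 in native, a difference of -2.66 ± 0.66 (adjusted p = 0.011, at least 1.53-fold lower). U69884_at of Kcnn3 had 622 and 331 in normoxic modiolus, against 54.3 in native, a difference of 2.74 ± 0.84 (adjusted p = 0.035). Neither of the Kcnn3 groups was above background, so that it fell outside the rule for named members and was added after its values were seen. Kcnh3 by AF073892_s_at had 1592 and 885 in normoxic organ of Corti, against 312 and 878 in native, 778 and 1033 in normoxic modiolus, against 718, and 1224 and 745 in normoxic stria vascularis, against 233. The mean difference was 1.14 ± 0.35 (adjusted p = 0.022, at least 1.75-fold higher), whereas AJ007627_at of the same gene gave -0.20. The call was lost without native, or normoxic, organ of Corti replicate 1 (0.052 and 0.059) or normoxic stria vascularis replicate 1 (0.061).

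In organ of Corti 4 members fell and 0 rose, against 17.3% of all probe sets called (8.79% lower and 8.47% higher). In modiolus 6 fell and 1 rose, against 20.9% (10.8% lower and 10.1% higher). In stria vascularis 1 fell and 0 rose, against 13.7% (6.33% lower and 7.36% higher). In stria vascularis the values next in order did not pass. Kcnh3 by AF073892_s_at was 1.97 ± 0.64 (adjusted p = 0.062) and Kcna4 by X16002cds_s_at, a Shaker-type channel, was -2.60 ± 0.87 (adjusted p = 0.072). Without normoxic organ of Corti replicate 1 the organ of Corti count was 1, and without either native replicate it was 2. Without normoxic stria vascularis replicate 2 the stria vascularis count was 0, and without its replicate 1 or without either native organ of Corti array it was 2.

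**Figure D4:**
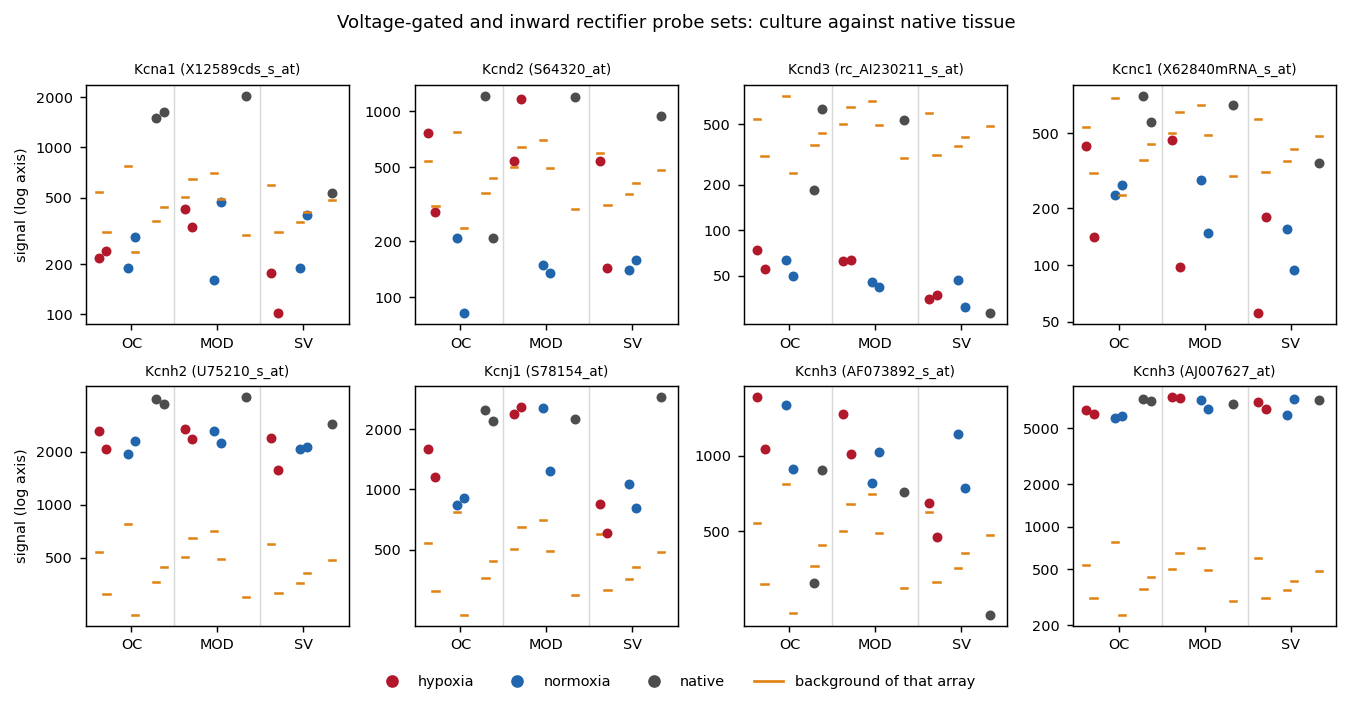
Signal of 8 probe sets (log axis, arbitrary units) on each of the 16 arrays, by region, abbreviated as in the plot of regions, with hypoxia in red, normoxia in blue, native tissue in grey and the background of each array as an orange bar. Every normoxic array of Kcna1, Kcnd2 and Kcnc1 lay below the native arrays of its region, and the 2 probe sets of Kcnh3 did not go together.

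Markers of other cells moved with culture as well, each gene being given by its brightest probe set. Of 16 listed neuronal genes 12 were measured, and with culture 8 fell and 0 rose on average, 8 fell and 1 rose in modiolus, and 0 fell and 2 rose in stria vascularis. Their summed signal was 73360 to 81280 in normoxic, against 126400 to 138600 in native organ of Corti, 48970 to 55980 in normoxic, against 124200 in native modiolus, and 24440 to 25240 in normoxic, against 18530 in native stria vascularis. All 5 measured genes of Schwann cells and myelin fell on average. In stria vascularis, where Kcnj1 was called lower, the 3 measured genes of the strial list also fell, with -2.17 ± 0.65 for Kcne1 (adjusted p = 0.045), -2.53 ± 0.68 for Kcnq1 (adjusted p = 0.027) and -1.87 ± 0.41 for Atp1b2 (adjusted p = 0.0086). Of the hair cell list only Chrna9 was measured, a receptor subunit of hair cells, with 858 and 860 in native organ of Corti and no call for culture. Every native array was of session 1 and had a Gapdh ratio of 3.39 or more, beside 1.39 or less on cultured arrays. Scan session, RNA integrity and culture therefore cannot be told apart. The part of such cells in the culture differences was not tested.

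Some other ion transport genes fell with culture. Of 25 genes whose symbols begin with Scn, Cacn or Hcn, mostly sodium and calcium channels, 8 were lower, 0 higher and 17 did not pass. Their median was -0.43. Over all probe sets 18.7% were lower and 13.3% higher, with a median of -0.14. Each gene here was given by its brightest probe set alone, whereas the values over all probe sets include dim ones. They are therefore not like for like. Scn7a differed by -1.75 ± 0.39 (adjusted p = 0.0037), Scn9a, a sodium channel of peripheral neurons, by -1.72 ± 0.45 (adjusted p = 0.01) and Cacna2d1, an auxiliary calcium channel subunit, by -1.20 ± 0.21 (adjusted p = 0.00086). Of 4 sodium pump genes 3 fell, with Atp1b1 at -1.68 ± 0.20. The 2 potassium channel genes left aside are those of endolymph secretion: Kcne1 had a native mean of 1202 in organ of Corti, 1798 in modiolus and 52130 in stria vascularis, and Kcnq1 was 870 in native stria vascularis.

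Hypoxia, tested as hypoxic minus normoxic culture, gave no call among the 73 members on average or in any region. Over all probe sets 0.158% were called on average, 0 in organ of Corti, 0.0792% in modiolus and 0.238% in stria vascularis. At an unadjusted p under 0.05 there were 4 members on average, 4 in organ of Corti, 6 in modiolus and 3 in stria vascularis, beside 94, 57, 101 and 63 of all 1263 probe sets in the same order. With the session as a term or block 0 members passed. The mean differences of the members ranged from -0.96 to 1.65 with a median of 0.12, beside 0.05 for all probe sets. The median half-width of their 95% confidence intervals was 0.74.

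The smallest p belonged to Kcnh6 with 1494 and 1505 in hypoxic, against 1112 and 1358 in normoxic organ of Corti. It had 972 and 518 in hypoxic, against 345 and 151 in normoxic modiolus, and 380 and 401 in hypoxic, against 135 and 111 in normoxic stria vascularis. All 6 hypoxic arrays were above the normoxic ones of their region. The mean difference was 1.13 ± 0.28 (95% interval 0.53 to 1.74), which did not pass (adjusted p = 0.2, and 0.11 with the session as a term). It was 1.09 in session 2 and 1.18 in session 3. In modiolus it was 1.57, in stria vascularis 1.55 and in organ of Corti 0.28, with adjusted p values of 0.35, 0.42 and 1.0. Normoxic modiolus and normoxic stria vascularis were below background. With these raised to background, Kcnh6 was at least 1.20-fold higher in hypoxic modiolus, 1.02-fold in hypoxic stria vascularis and 1.14-fold on average.

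Kcnd2 by S64320_at had 765 and 288 in hypoxic, against 207 and 82 in normoxic organ of Corti, 543 and 1166 in hypoxic, against 149 and 135 in normoxic modiolus, and 541 and 144 in hypoxic, against 141 and 157 in normoxic stria vascularis. Organ of Corti and modiolus did not overlap between conditions and stria vascularis did. The mean difference was 1.65 ± 0.50 (adjusted p = 0.35). All normoxic groups and hypoxic stria vascularis were below background, so that no least fold can be given for the mean. In hypoxia the probe set was at least 1.09-fold higher in organ of Corti and 1.34-fold higher in modiolus. Kcnv1, which silences Kcnb channels, had a mean difference of 1.35 ± 0.48 (adjusted p = 0.45), with 734 and 866 in hypoxic, against 701 and 134 in normoxic modiolus. Kcnj10 by X83585cds_s_at, the rectifier of glia and strial cells, differed by 0.75 ± 0.30 (adjusted p = 0.57).

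Within modiolus, the smallest p values belonged to Kcnh2 by Z96106_at, with 915 and 1371 in hypoxia, against 347 and 249 in normoxia (1.87, adjusted p = 0.32), and Kcnj11 by D86039_g_at, with 1107 and 883, against 327 and 440 (1.35, adjusted p = 0.35). Neither overlapped between conditions. Normoxic modiolus was below background for both, which were at least 1.875-fold and 1.657-fold higher in hypoxia. In stria vascularis, Kcnh5 had 423 and 416 in hypoxia, against 817 and 806 in normoxia (-0.93, adjusted p = 0.58), and Kcnc4 had 70.6 and 277, against 522 and 565 (-1.81, adjusted p = 0.86). In organ of Corti the differences were 1.43 for Kcna6 by X17621cds_at, -1.24 for Kcnma1 by AF083341_s_at and 1.17 for Kcnd2 by M59980_s_at, each with an adjusted p of 0.99. The F test of a hypoxia difference that varied between regions called 0 members and 0% of all probe sets. At an unadjusted p under 0.05 it gave 7 members, beside 66 of all 1263 probe sets. Its smallest adjusted p values were 0.62 for Kcnh2 (Z96106_at), 0.85 for Kcnh5 and 0.87 for Kcnj11 (D86039_g_at).

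On all 6 hypoxic arrays 5 members exceeded the normoxic mean of their region, namely Kcnh6, Kcnj10 (X83585cds_s_at), Kcnj13, Kcnj16 and Kcnv1, and 0 fell below it. Over all probe sets 4.83% exceeded it on all 6 and 2.38% fell below it, so that the members' 5 of 73 stood near the background. The sign of the mean difference was the same in both sessions for 31 of 73 members and opposite for the others. The same count was not made over all probe sets. Kcnj16 differed by 1.56 in session 2 and -0.18 in session 3.

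**Figure D5:**
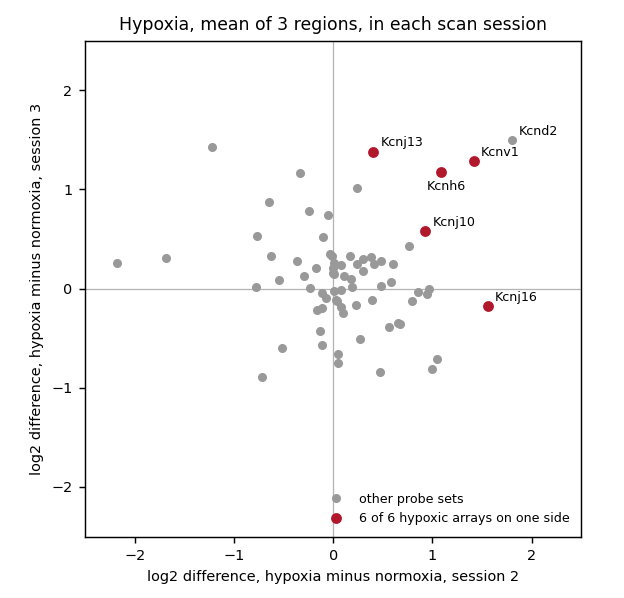
Log2 difference of hypoxia minus normoxia, mean of the 3 regions, in scan session 2 (horizontal axis) and session 3 (vertical axis) for the 73 probe sets. Red points had all 6 hypoxic arrays above the normoxic mean of their region. The points lie in all 4 quadrants, and Kcnh6 is at 1.09 and 1.18.

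Genes with more than 1 probe set allowed a check of sign. Of 19 such genes, all probe sets had the same sign for 13 with culture, 10 with hypoxia, 14 between cultured organ of Corti and modiolus, 11 between organ of Corti and stria vascularis and 17 between modiolus and stria vascularis. Across all comparisons 52 of the 73 members passed none, and the 21 others belonged to 16 genes. The same count was not made over all probe sets, so it cannot be read as many or few.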

How the data were processed

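Total RNA of 16 pools was hybridised to Affymetrix Rat Neurobiology U34 arrays. The authors deposited 1 intensity per probe set and array on a linear scale, and the trimmed mean of 2500 on each array shows that they scaled every array to a common mean. The summary software is not given in the sources used here. The authors also deposited scanner records (other values), which gave only the scan session. The array annotation named 1137 of 1263 probe sets by 1 symbol, 8 by several and 118 by none, after 59 controls of 1322 were left out.

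Intensities were taken as log2(value + 16), and 9 group means were fitted with lmFit and eBayes (trend) of limma 3.58.1 in R 4.3.3, with statmod 1.5.0 for blocks. Benjamini-Hochberg adjustment ran over 1263 probe sets. The number of arrays, with 7 residual degrees of freedom, limits the precision. In data simulated with 200 changed probe sets, 53.6% of 2-fold and 87.8% of 4-fold changes were recovered for the mean culture difference. For the mean hypoxia difference 61% and 92.6% were recovered. The measured hypoxia comparison called 0.158% of all probe sets on average, far fewer than were changed in the simulation. Adjustment is stricter when fewer probe sets change, so the hypoxia shares do not tell how often a real change would be found.

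Replicate numbers were checked for pairing. Deviations of same-numbered cultured groups correlated at -0.0058 to 0.284, with 10 of 15 pairs above 0.1, and no label names a shared litter or day, so that they were not taken as pairs. Members were named where they passed a comparison and were above background in a group compared, together with the 3 of smallest p in each comparison with fewer than 3 calls and the brightest gene of each subfamily. The members and lists were chosen with earlier results of these data known. Alternatives were other pseudocounts, quantile normalization, median centring, a fit without the variance trend, the removal of dim probe sets, replicate and session blocks, and each array left out.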

Additional observations from a re-analysis of the deposited data

Results flagged for a closer look

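For Kcnj11 (D86039_at) the difference between normoxic and native tissue varied between the 3 regions, by a moderated F test of that variation (adjusted p = 0.04). It was -3.79 in modiolus, -1.30 in stria vascularis and -0.86 in organ of Corti on the log2 scale. In stria vascularis and modiolus the native side was 1 array.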

How the results depend on the processing

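Of 56 named calls under 1317 combinations with an alternative, 1230 kept their side of the threshold, 87 were lost and 0 reversed, and 32 calls were kept under every alternative run. The count of members between cultured modiolus and stria vascularis was 10, and 5 under quantile normalization and 5 under median centring. Between native organ of Corti and native stria vascularis it was 3, and 6 with a pseudocount of 64, 5 with no variance trend, 6 with the replicate block and 6 with the session as a random block. For culture in stria vascularis it was 1, and 2 with the filter on dim probe sets. For culture differing by region it was 1, and 2 with a pseudocount of 64 and 0 with no variance trend. The replicate block gave 14 calls in place of 10 for mean culture and 0 for hypoxia. The cause of these shifts was not tested.

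Leaving out 1 array at a time gave 8 to 12 calls for mean culture, 1 to 4 in organ of Corti, 5 to 8 in modiolus and 0 to 2 in stria vascularis. It gave 7 to 12 between cultured organ of Corti and modiolus, 5 to 6 between organ of Corti and stria vascularis, and 6 to 11 between modiolus and stria vascularis. Between native regions it gave 2 to 3, 0 to 5 and 4 to 6 in the same order, 0 to 1 for culture differing by region, and 0 for hypoxia. Native organ of Corti against stria vascularis had 0 without native organ of Corti replicate 2 and 5 without either normoxic modiolus array. Leaving out the single native modiolus or stria vascularis array gives no value for comparisons that need it. Members near background, 22 of which exceeded it in no group, carry little information on differences.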
